A study of Mus musculus with 4 samples.

Results

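The antibody-secreting arm of the irradiated intestine was followed through 9 genes of plasma cells, B cells and IgA transport. They were Jchain, Mzb1, Derl3 and Tnfrsf17 of plasma cells, Cd79a, Cd79b and Ms4a1 of B cells, Pigr, the epithelial IgA transporter, and Tnfsf13b, the survival factor BAFF. They were chosen by name, with earlier results of these data known and with no cut on level. All 9 were found among the 17505 genes of the table. The tissue came from C57BL/6 mice 3 days after a single 10 Gy dose of X-rays to the abdomen, which both groups received, and gave 4 libraries, read on the BGISEQ platform. In the 2 Vil-CREPT-KO libraries, exon 3 of CREPT (gene Rprd1b, a regulator of RNA polymerase II) was floxed on both alleles and cut by Cre under the villin promoter, which is active in the intestinal epithelium, so that leukocytes and stroma kept the gene. The 2 WT libraries came from mice with intact CREPT. The study used mice of both sexes at 6 to 8 weeks of age. No unirradiated tissue was compared, and the intestinal segment was not stated. The study's methods name intestines as the source of RNA from irradiated mice, whereas a legend speaks of crypts, so how much lamina propria the samples held was not settled. Levels were given as FPKM, in which a gene's fragments are divided by its transcript length and by all fragments mapped in the library.

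Plasma cells of the gut lamina propria secrete IgA as dimers held together by the J chain. The polymeric immunoglobulin receptor at the basal side of epithelial cells binds these dimers, carries them through the cell and releases them into the lumen with a piece of itself. Plasma cells live on BAFF and on its relative APRIL, which myeloid, stromal and epithelial cells supply, whereas B cells that have not yet become plasma cells carry CD20 and a surface antigen receptor that signals through the CD79 pair.

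Since most of these genes had higher values together in the Vil-CREPT-KO libraries, the bases before their transcription starts were read from RefSeq promoters of GRCm38.p6, which were matched for 6 of the 9 genes. Shown are the 250 bases before the start of 4 of them, 1 for each of antibody assembly, endoplasmic reticulum load, antigen receptor and transport. Capitals mark an E-box (CACGTG), the endoplasmic reticulum stress element (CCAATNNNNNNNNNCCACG) or an ETS core (GGAAGT), on either strand, and positions count back from -1, the last base before the start.
Jchain, chr5:88527898-88528147, strand minus: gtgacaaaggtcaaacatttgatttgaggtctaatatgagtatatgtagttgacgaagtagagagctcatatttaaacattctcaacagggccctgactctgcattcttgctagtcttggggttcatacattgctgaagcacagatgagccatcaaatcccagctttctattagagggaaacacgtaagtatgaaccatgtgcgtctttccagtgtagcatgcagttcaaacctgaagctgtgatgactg
Derl3, chr10:75893148-75893397, strand plus: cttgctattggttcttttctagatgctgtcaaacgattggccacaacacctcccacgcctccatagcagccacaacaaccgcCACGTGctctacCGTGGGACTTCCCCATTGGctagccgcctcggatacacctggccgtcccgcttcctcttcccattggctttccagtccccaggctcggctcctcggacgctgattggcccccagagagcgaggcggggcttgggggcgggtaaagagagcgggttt
Cd79a, chr7:24897247-24897496, strand plus: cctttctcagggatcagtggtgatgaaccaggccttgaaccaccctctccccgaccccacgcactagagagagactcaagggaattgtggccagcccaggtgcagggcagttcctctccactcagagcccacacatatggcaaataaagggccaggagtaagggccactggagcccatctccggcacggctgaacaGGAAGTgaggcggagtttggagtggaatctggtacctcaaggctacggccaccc
Pigr, chr1:130826434-130826683, strand plus: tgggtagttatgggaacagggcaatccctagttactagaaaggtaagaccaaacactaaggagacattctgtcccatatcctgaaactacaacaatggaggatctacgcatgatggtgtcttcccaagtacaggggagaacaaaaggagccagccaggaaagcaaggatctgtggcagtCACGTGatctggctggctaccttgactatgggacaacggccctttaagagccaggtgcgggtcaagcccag

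The Derl3 promoter held an E-box at -168 to -163 and, read on the minus strand, a stress element at -156 to -138, inside which lay an ETS core at -150 to -145. Stress elements of this kind bind ATF6 and XBP1, regulators of the unfolded protein response, and were found in 0.113% of the 32851 promoters of this length. The same window held 5 CCAAT boxes, a motif in 33.8% of promoters, and 3 matches to CCACG, which is in 28.3% of them; 1 of each belonged to the stress element, and another CCACG overlapped the E-box. The Pigr promoter held an E-box at -71 to -66, as did 6.02% of promoters, and Cd79a an ETS core at -54 to -49 (19.7% of promoters) and a CCACG at -194. For Jchain, none of the 9 motifs searched was in this window. The other motifs were the octamer ATGCAAAT (1.6% of promoters), the interferon response core GAAANNGAAA (2.98%), the kappaB motif GGGANNTTCC (1.21%) and the EBF site TCCCNNGGGA (0.779%). Among the 2 matched promoters not shown, an interferon response core lay at -101 before Tnfrsf17 and at -16 before the downstream start of Tnfsf13b. A match describes letters in a window and not a bound site.

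Between the groups, 7 of the 9 genes had both Vil-CREPT-KO values above both WT values, Tnfrsf17 overlapped, and Ms4a1 was too low to be tested. Of all tested genes, 31.9% had both Vil-CREPT-KO values above both WT values and 22.1% had both below. The log2 fold change was above 0 for 8 of 8 tested members, against 57.4% of all tested genes, and its median was 0.453 against 0.059. A log2 fold change of 0.453 or more was found for 11.2% of all tested genes. The members were chosen with earlier results of these data known and were read in the same 4 libraries. Their counts and median are therefore not independent outcomes and describe these samples only. The largest log2 fold change among the members was 0.70, for Pigr, so none of the 8 reached the fold threshold of 1. None had an adjusted p under 0.05 either, the lowest by limma being 0.151, for Pigr. By limma with Benjamini-Hochberg adjustment, 0 of the 8 were called (adjusted p under 0.05, absolute log2 change over 1), against 0.387% of all tested genes called higher and 1.69% called lower. At an unadjusted p under 0.05, 6 of the 8 were higher, against 10.2% of all tested genes, while 10.1% of all tested genes were lower. That count was 2 without Vil-CREPT-KO 1, 4 without Vil-CREPT-KO 2, 1 without WT 1 and 0 without WT 2, and 0 of 8 were called in each of these fits. Across all tested genes, 419 genes were called without Vil-CREPT-KO 1, 899 without Vil-CREPT-KO 2, 4 without WT 1 and 6 without WT 2, in place of 241. The study describes the 2 libraries of a group as biological replicates from 2 mice. With 2 libraries per group the p-values measure only the spread between these samples, and in RNA from bulk tissue more cells of a type and more RNA per cell cannot be told apart.

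**Figure D1:**
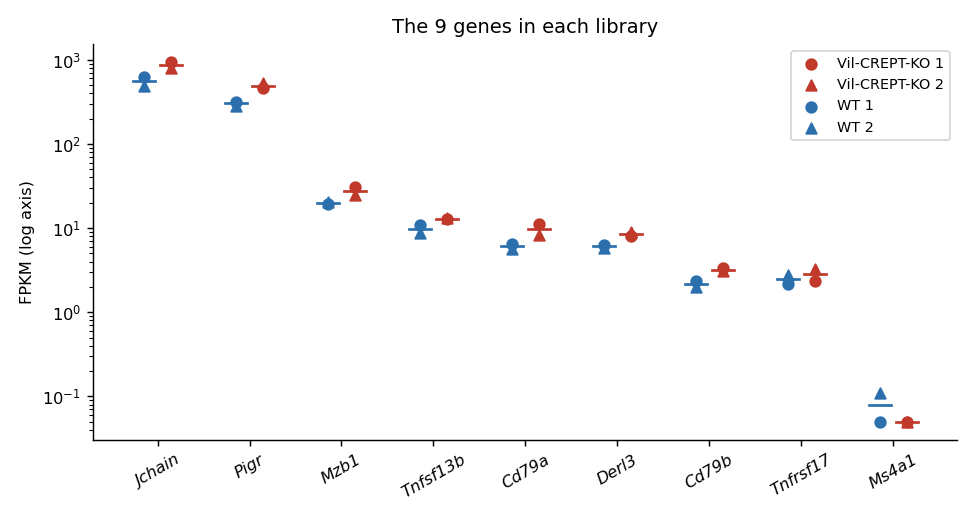
FPKM (vertical, log axis) of the 9 genes in the 4 libraries, ordered by mean level, with WT in blue, Vil-CREPT-KO in red, a circle for replicate 1, a triangle for replicate 2 and a bar at each group mean. Red points lie above blue points for 7 genes, while Tnfrsf17 overlaps and Ms4a1 stays near 0.

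**Figure D2:**
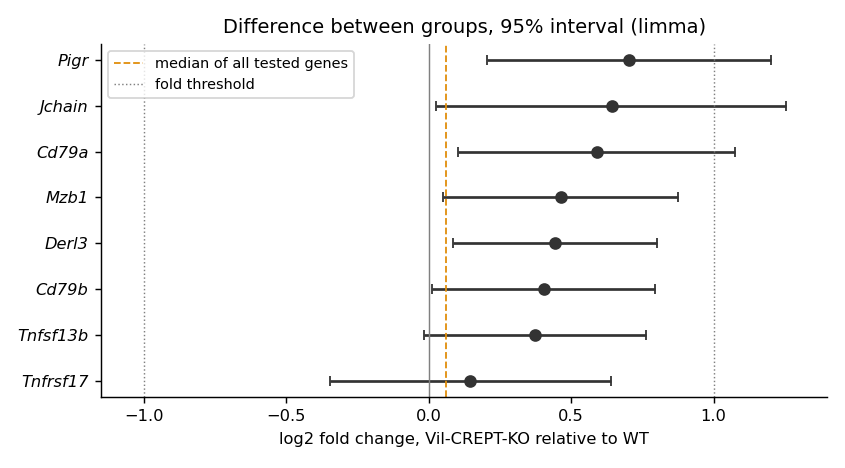
Log2 fold change of Vil-CREPT-KO relative to WT on the log2(FPKM + 1) scale (horizontal) for the 8 tested genes, with 95% limma intervals, dotted lines at the fold threshold and a dashed line at the median of all tested genes, 0.059. All 8 estimates lie above 0, and the intervals of Tnfsf13b and Tnfrsf17 reach below it.

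The libraries differed in other ways that bear on these values. Rprd1b, the targeted gene, was at 4.01 and 3.93 FPKM in libraries Vil-CREPT-KO 1 and 2 and at 5.99 and 7.19 in WT 1 and 2 (log2 fold change -0.61, limma adjusted p = 0.129), over the whole transcript, so that exon 3 was not read on its own. All 9 gastric and gland mucous genes were called lower, among them Gkn3 (-10.73, adjusted p = 0.000966), Tff2 (-10.27, 0.0130), Muc6 (-9.98, 0.000256) and Gkn2 (-8.76, 0.00253). The summed FPKM of these 9 genes was 22.4 and 107 in Vil-CREPT-KO against 38862 and 42160 in WT. Tff2 was not called without WT 1 (adjusted p = 0.287), without WT 2 (0.212) or with no filter (0.0553), and over all lists only 4 genes were called without WT 1 and 6 without WT 2. Of 7 tested genes of small intestine regions, 1 was called lower, Ttr (log2 fold change -3.44, adjusted p = 0.0264), and its adjusted p was 0.345 without WT 1, 0.236 without WT 2, 0.0799 at a pseudocount of 0.1 and 0.0832 with no filter, each of which ended the call. Pancreatic acinar genes differed by library, with a summed FPKM of 100.7 in Vil-CREPT-KO 1 and of 7368 to 20333 in the other 3, and Amy2a5, Ctrb1 and Cela2a had log2 fold changes of -5.63, -4.61 and -4.79 (adjusted p = 0.400, 0.461 and 0.429). The piece of gut sampled and the genotype therefore cannot be told apart. With each library rescaled without these mucous and acinar genes, the median of all tested genes moved from 0.059 to -0.058, and the members' log2 fold changes, all still above 0, lay between 0.05 for Tnfrsf17 and 0.57 for Pigr, with adjusted p-values of 0.202 or more and 2 members at an unadjusted p under 0.05.

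Jchain, which encodes the chain that joins IgA monomers (NCBI gene 16069, GRCm38.p6 chr5:88519809-88527897), was the most abundant of the 9 genes. It was at 942 and 803 FPKM in libraries Vil-CREPT-KO 1 and 2 and at 628 and 495 FPKM in WT 1 and 2. It stood at percentiles 99.0 to 99.6 of all genes in the 4 libraries, and the groups did not overlap. The means were 873 ± 98.1 against 561 ± 94.1 FPKM (SD, n = 2 each), a ratio of 1.56, with a log2 fold change of 0.64 (SE 0.24, 95% interval 0.03 to 1.26, limma adjusted p = 0.233). WT 2 was the lowest of the 4 libraries and Vil-CREPT-KO 1 the highest.

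Mzb1 encodes an endoplasmic reticulum chaperone of plasma cells and innate-like B cells that assists antibody secretion (gene 69816, chr18:35647265-35650266). Its levels were 30.9 and 24.95 FPKM in libraries Vil-CREPT-KO 1 and 2 and 19.4 and 20.35 FPKM in WT 1 and 2. The WT libraries lay close together and the Vil-CREPT-KO libraries apart, without overlap of the groups. The means were 27.9 ± 4.19 and 19.9 ± 0.679 FPKM (SD, n = 2 each), and the log2 fold change was 0.46 (SE 0.161, 95% interval 0.05 to 0.87, limma adjusted p = 0.212).

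Derl3 encodes a derlin that helps to draw misfolded proteins out of the endoplasmic reticulum and is prominent in secretory cells (gene 70377, chr10:75893398-75895941). It was at 8.10 and 9.05 FPKM in libraries Vil-CREPT-KO 1 and 2 and at 6.24 and 5.84 FPKM in WT 1 and 2. Unlike Jchain and Mzb1, its highest library was Vil-CREPT-KO 2. The means were 8.58 ± 0.672 and 6.04 ± 0.283 FPKM (SD, n = 2 each), a log2 fold change of 0.44 (SE 0.14, 95% interval 0.08 to 0.80, limma adjusted p = 0.181).

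Tnfrsf17 encodes BCMA, the receptor through which BAFF and APRIL keep plasma cells alive (gene 21935, chr16:11313232-11320074). It was at 2.37 and 3.29 FPKM in libraries Vil-CREPT-KO 1 and 2 and at 2.16 and 2.74 FPKM in WT 1 and 2. The groups overlapped, since WT 2 lay above Vil-CREPT-KO 1. The log2 fold change was 0.15 (SE 0.193, 95% interval -0.35 to 0.64, limma adjusted p = 0.705), an interval that holds both no difference and the estimates of Mzb1 and Derl3. Without Vil-CREPT-KO 2 it was -0.03, the only turn of direction among the 8 tested members over the alternatives run. At an estimated 33 to 49 fragments a library, this was the thinnest plasma cell value.

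The ratios of Jchain to Mzb1 and to Tnfrsf17 within a library were chosen after their values were seen, and a ratio to Derl3 was not taken. Jchain was at 30.5 and 32.2 times the FPKM of Mzb1 in Vil-CREPT-KO 1 and 2 and at 32.4 and 24.3 times in WT 1 and 2. Against Tnfrsf17 it was at 398, 244, 291 and 180 times in the same order, so that the groups overlapped in both ratios.

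A wider list of 20 plasma cell genes, 19 of them tested, was divided between higher and lower values. By limma, 0 were called in either direction, 9 had both Vil-CREPT-KO values above both WT values and 8 had both below, against 31.9% and 22.1% of all tested genes, and the median log2 fold change was 0.00 against 0.059 for all tested genes. At an unadjusted p under 0.05, 4 of the 19 were higher and 4 lower, against 10.2% and 10.1% of all tested genes. The most abundant genes were Hsp90b1, a chaperone (log2 fold change -0.30, adjusted p = 0.372), Xbp1, a factor of the unfolded protein response (-0.16, adjusted p = 0.607), and Sec11c, a subunit of signal peptidase (-0.68, adjusted p = 0.115). The epithelium of the gut also expresses all of these, and the summed FPKM of the list was 757 and 731 in Vil-CREPT-KO against 796 and 817 in WT.

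The genes at the ends of this list were named after their values were seen. At the upper end stood Eaf2, an elongation factor partner, at 15.6 and 19.6 FPKM for Vil-CREPT-KO and 6.41 and 8.17 in WT (log2 fold change 1.17, limma adjusted p = 0.0564). Pou2af1, a B lineage coactivator of octamer-binding factors, was at 7.53 and 8.64 against 3.82 and 4.17 FPKM (0.86, adjusted p = 0.0636). Cd38, an ectoenzyme, and Sdc1, the plasma cell and epithelial syndecan CD138, had log2 fold changes of 1.14 and 0.77 (adjusted p = 0.0856 and 0.129). These 4 genes did not overlap between groups. At the lower end, beside Sec11c, stood Fkbp11, Txndc5, Sdf2l1 and Creld2, which encode folding factors of the endoplasmic reticulum. Their log2 fold changes were -0.67, -0.51, -0.50 and -0.38 (adjusted p = 0.162, 0.154, 0.377 and 0.209), again without overlap.

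**Figure D3:**
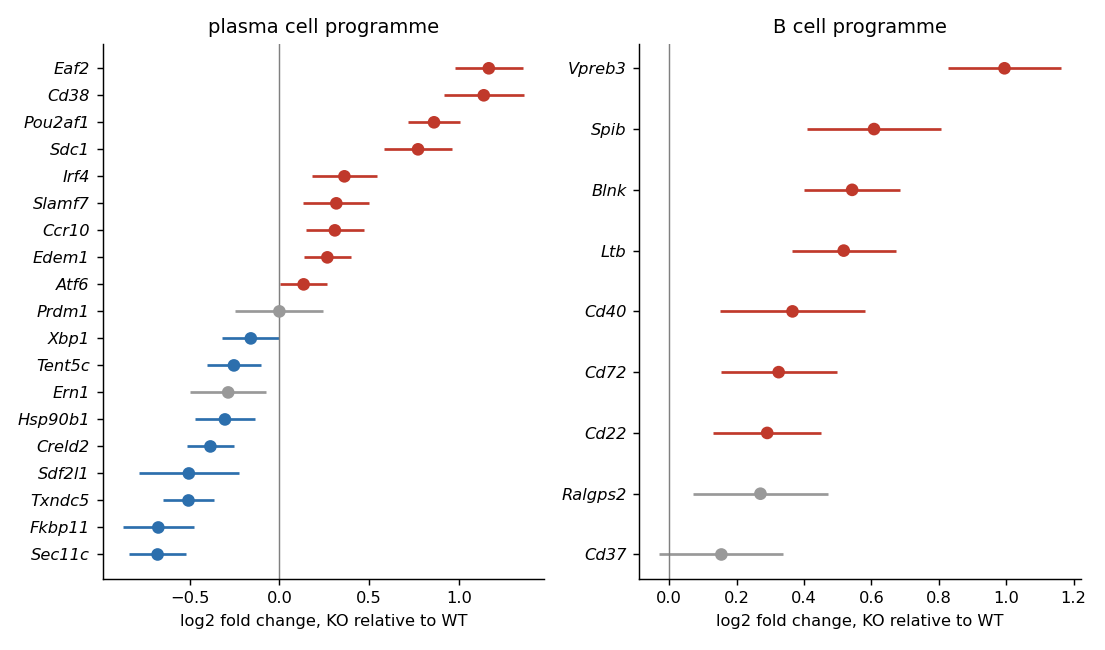
Log2 fold change on the log2(FPKM + 1) scale (horizontal), with bars of 1 SE, for the tested genes of the plasma cell list (left, 19 genes) and the B cell list (right, 9 genes). Red and blue mark genes with both Vil-CREPT-KO values above or below both WT values and grey marks overlap; the left panel divides into 9 red and 8 blue genes and the right holds 7 red and 0 blue.

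Cd79a encodes the Ig-alpha chain of the antigen receptor complex, which plasma cells can retain at low level (gene 12518, chr7:24897497-24901858). It was at 11.3 and 8.21 FPKM in libraries Vil-CREPT-KO 1 and 2 and at 6.45 and 5.71 FPKM in WT 1 and 2. The groups did not overlap, and Vil-CREPT-KO 1 was highest, as for Jchain and Mzb1. The means were 9.75 ± 2.18 and 6.08 ± 0.523 FPKM (SD, n = 2 each), a ratio of 1.60 and a log2 fold change of 0.59 (SE 0.19, 95% interval 0.10 to 1.08, limma adjusted p = 0.188).

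Cd79b encodes its partner Ig-beta (gene 15985, chr11:106311341-106314562). It was at 3.31 and 3.06 FPKM in libraries Vil-CREPT-KO 1 and 2 and at 2.37 and 1.97 FPKM in WT 1 and 2. The means were 3.19 ± 0.177 and 2.17 ± 0.283 FPKM (SD, n = 2 each), with a log2 fold change of 0.40 (SE 0.153, 95% interval 0.01 to 0.79, limma adjusted p = 0.237). The ratio of Cd79a to Cd79b in FPKM was 3.41 and 2.68 in Vil-CREPT-KO 1 and 2 and 2.72 and 2.90 in WT 1 and 2, so both groups held the pair in overlapping proportions.

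Ms4a1 encodes CD20, which marks B cells and is lost on becoming a plasma cell (gene 12482, chr19:11249679-11266149). It was at 0.05 FPKM in both Vil-CREPT-KO libraries and in WT 1 and at 0.11 FPKM in WT 2, or about 3 to 6 estimated fragments a library, and was not tested. A difference between groups could not be detected at this depth. Its span overlaps the gene 4930526L06Rik, and use of strand in the counting was not stated. Cd79a, at 51.9 to 226 times the FPKM of Ms4a1 in the 4 libraries, was far above it throughout.

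Among the listed B cell genes, 2 further markers were as low, chosen after their values were seen. Cr2, the complement receptor of follicular B cells and follicular dendritic cells, was at 0.02 FPKM in each Vil-CREPT-KO library and listed at 0 in both WT libraries. Fcer2a, encoding CD23, reached at most 0.04 FPKM. Others were higher, such as Cd22 at 0.79 to 1.36 FPKM, Cd37 at 1.32 FPKM or more and Cd40 at 0.52 to 1.38 FPKM. Over all tested genes, 31.9% lay higher and 22.1% lower without overlap, and 10.2% were higher at an unadjusted limma p under 0.05. Of 25 listed B cell genes, 23 were in the table and 9 were tested. By limma, 0 of the 9 were called and 4 were higher at an unadjusted p under 0.05; 7 had both Vil-CREPT-KO values above both WT values and 0 both below, and the median log2 fold change was 0.366. The most abundant were Blnk, a receptor adaptor (log2 fold change 0.54, adjusted p = 0.137), Ralgps2, an exchange factor (0.27, adjusted p = 0.495), and Cd72, a coreceptor (0.33, adjusted p = 0.357). Blnk alone made up most of the summed FPKM of the list, which was 74.5 and 71.5 in the Vil-CREPT-KO pair and 47.7 and 51.7 in WT, and Blnk is also found in myeloid cells. Vpreb3, a chaperone of B lineage receptors named after its values were seen, was at 3.91 and 3.14 against 1.15 and 1.38 FPKM (log2 fold change 0.995, adjusted p = 0.0622). In the germinal centre list of 8 genes, 3 were tested and 0 were called by limma, with 0 at an unadjusted p under 0.05. Fas, Bcl6 and S1pr2 had log2 fold changes of -0.57, 0.15 and 0.14 (adjusted p = 0.310, 0.798 and 0.654), and that of Bcl6 turned to -0.22 without WT 2. Of a list of 15 immunoglobulin genes, 3 genes of the surrogate light chain could be read and were below the filter. The constant region genes were not analysed here, so the antibody class was not read.

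**Figure D4:**
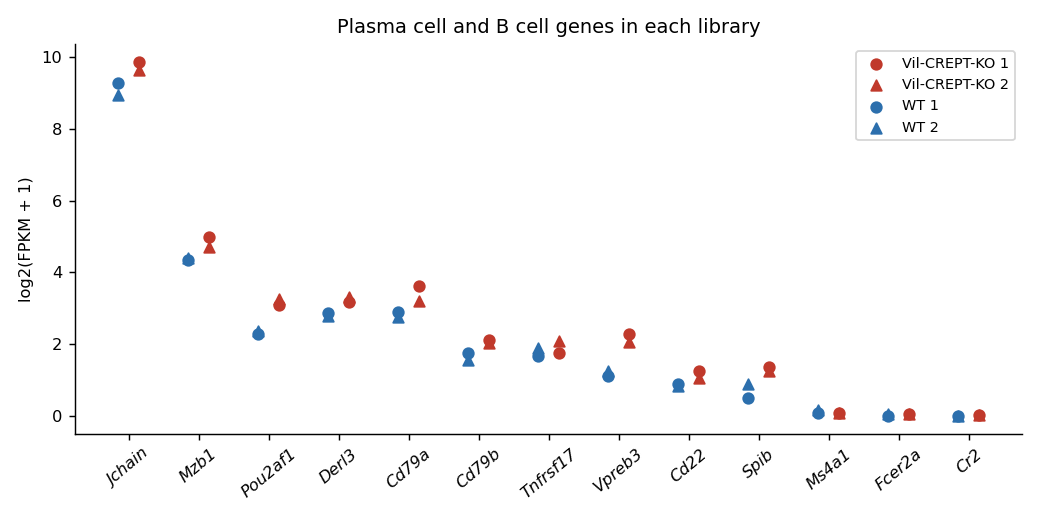
log2(FPKM + 1) (vertical) of plasma cell and B cell genes in the 4 libraries, with WT in blue, Vil-CREPT-KO in red, circles for replicate 1 and triangles for replicate 2. Jchain stands highest, at 495 to 942 FPKM, whereas Ms4a1, Fcer2a and Cr2 lie at the bottom, none above 0.11 FPKM. The genes drawn beside the members were picked from the lists and do not give the direction of a whole list. Of the wider plasma cell list only Pou2af1 is drawn, while 9 of its 19 tested genes lay higher and 8 lower without overlap.

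Pigr encodes the polymeric immunoglobulin receptor of the epithelium (gene 18703, chr1:130826684-130852249). It was at 462 and 524 FPKM in libraries Vil-CREPT-KO 1 and 2 and at 319 and 286 FPKM in WT 1 and 2. Vil-CREPT-KO 2 was highest, in contrast to Jchain, and the groups did not overlap. The means were 493 ± 43.5 and 302 ± 23.7 FPKM (SD, n = 2 each), a ratio of 1.63, close to that of Cd79a, with a log2 fold change of 0.70 (SE 0.195, 95% interval 0.20 to 1.20, limma adjusted p = 0.151). Jchain stood at 2.04 and 1.53 times the FPKM of Pigr in Vil-CREPT-KO 1 and 2 and at 1.97 and 1.73 times in WT 1 and 2, so the proportions of cargo and transporter overlapped.

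Most epithelial markers had higher values beside Pigr. Over all tested genes, 31.9% lay higher and 22.1% lower without overlap, and 10.2% were higher at an unadjusted limma p under 0.05. Of 12 epithelial genes, 9 had both Vil-CREPT-KO values above both WT values, 1 had both below, 0 were called by limma and 3 were higher at an unadjusted p under 0.05, and the summed FPKM was 15283 and 13124 in the Vil-CREPT-KO pair and 9662 and 10018 in WT. The most abundant, the keratins Krt8, Krt19 and Krt20, had log2 fold changes of 0.55, 0.42 and 0.53 (limma adjusted p = 0.345, 0.444 and 0.363). Relative to Epcam, the pan-epithelial adhesion molecule, Pigr was at 0.390 and 0.596 in Vil-CREPT-KO 1 and 2 and at 0.517 and 0.460 in WT 1 and 2, and relative to Krt8 the groups overlapped as well. Relative to Vil1, the gene of the brush border protein villin, Pigr was at 1.37 and 1.43 in the Vil-CREPT-KO pair and at 0.637 and 0.630 in WT, without overlap. Vil1 itself was at 338 and 367 against 501 and 454 FPKM (log2 fold change -0.44, adjusted p = 0.285). The part of epithelial content in the level of Pigr was not tested.

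Signals that induce Pigr in epithelial cells include interferon gamma, tumour necrosis factor and interleukin 17. Over all tested genes, 31.9% lay higher and 22.1% lower without overlap. At an unadjusted limma p under 0.05, 10.2% of them were higher and 10.1% lower. Of 16 listed inducers, receptors and mediators, 14 were tested, 0 were called by limma and 1 was lower at an unadjusted p under 0.05; 7 had both Vil-CREPT-KO values above both WT values and 1 both below, with a median log2 fold change of 0.095. The most abundant were the receptor genes Ifngr1, Ifngr2 and Tnfrsf1a, at 0.09, 0.28 and 0.23 (adjusted p = 0.780, 0.369 and 0.460), and Ifngr1 turned to -0.05 under the rescaling without mucous and acinar genes. Il17ra, the interleukin 17 receptor chain, was at 6.34 and 5.46 against 4.62 and 3.79 FPKM (0.41, adjusted p = 0.251), while Il17a was listed at 0 in 3 libraries and at 0.10 FPKM in Vil-CREPT-KO 2. Of 9 tested genes of vesicle transport across the epithelium, 0 were called by limma and 1 was higher and 1 lower at an unadjusted p under 0.05. Vamp8, Rab25 and Rab11a, which act in apical recycling and fusion, had log2 fold changes of -0.09, 0.03 and 0.34 (adjusted p = 0.792, 0.927 and 0.380). That of Rab25 turned to -0.10 under the same rescaling and to -0.04 without WT 1.

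Tnfsf13b, which encodes BAFF (gene 24099, chr8:10006229-10036000), was at 12.8 and 13.0 FPKM in libraries Vil-CREPT-KO 1 and 2 and at 10.75 and 8.81 FPKM in WT 1 and 2. The Vil-CREPT-KO libraries nearly coincided and both lay above WT. The means were 12.9 ± 0.163 and 9.78 ± 1.37 FPKM (SD, n = 2 each), with a log2 fold change of 0.37 (SE 0.152, 95% interval -0.02 to 0.76, limma adjusted p = 0.262). The related ligand APRIL, encoded by Tnfsf13, had the opposite order, at 7.89 and 10.3 FPKM for Vil-CREPT-KO and 15.35 and 15.6 FPKM in WT (log2 fold change -0.71, SE 0.169, adjusted p = 0.118). The ratio of Tnfsf13b to Tnfsf13 was 1.62 and 1.26 in the Vil-CREPT-KO pair and 0.700 and 0.566 in WT, without overlap.

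The other receptors of these ligands on B cells were below the filter. Tnfrsf13b, encoding TACI, was at 0.68 and 0.78 FPKM for Vil-CREPT-KO and 0.91 and 0.86 in WT, and Tnfrsf13c, encoding the BAFF receptor, at 0.32 and 0.63 against 0.26 and 0.32. Of the 10 genes of this axis, 8 were tested and 0 were called by limma, with a median log2 fold change of 0.178. At an unadjusted p under 0.05, 2 were higher and 1 lower, against 10.2% and 10.1% of all tested genes. The factors Relb and Nfkb2, which act downstream of the BAFF receptor, had log2 fold changes of 0.62 and 0.38 (limma adjusted p = 0.168 and 0.227).

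Relative to Ptprc, 8 of the 9 members overlapped between groups, and Ms4a1, near its floor, did not, with lower ratios in Vil-CREPT-KO. The share of all tested genes that overlapped in this way was not computed. The epithelial gene Pigr was among the 8, at 106 and 127 times Ptprc in the Vil-CREPT-KO pair and at 115 and 94.3 times in WT. No other pan-leukocyte gene was used as the divisor. Ptprc, which encodes the pan-leukocyte marker CD45, was at 4.36 and 4.13 FPKM for Vil-CREPT-KO and 2.78 and 3.03 in WT (log2 fold change 0.43, limma adjusted p = 0.196). Jchain was at 216 and 195 times Ptprc in the Vil-CREPT-KO pair and at 226 and 163 times in WT, Cd79a at 2.59 and 1.99 against 2.32 and 1.88, and Mzb1 at 7.08 and 6.04 against 6.98 and 6.72. Tnfsf13b was at 2.93 and 3.15 against 3.87 and 2.91 times Ptprc, and overlapped as well when set against Csf1r, the macrophage growth factor receptor. All of these ratios were chosen after the values were seen.

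**Figure D5:**
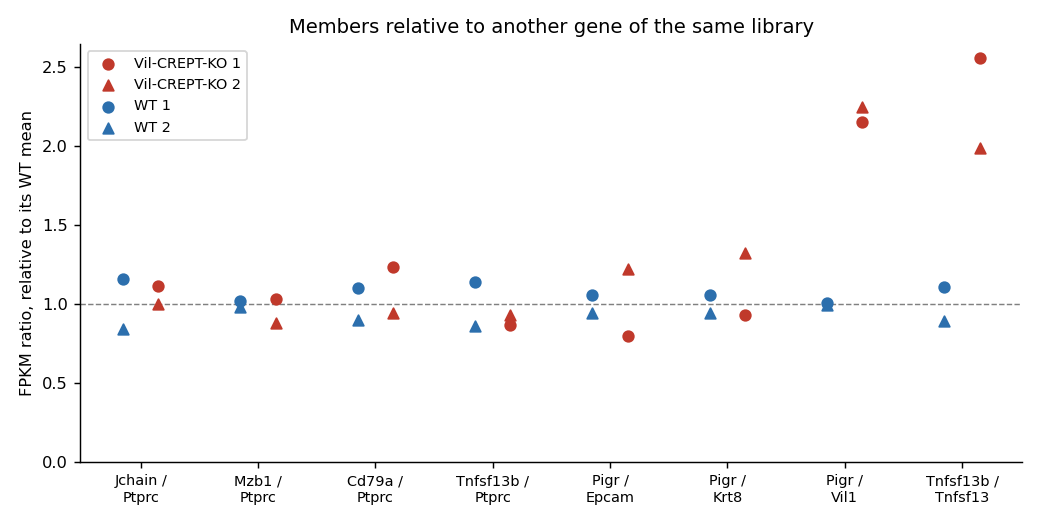
Ratio of the FPKM of a member to that of a second gene in the same library (vertical), divided by the mean of the ratio in WT, with WT in blue, Vil-CREPT-KO in red and a dashed line at 1. The ratios to Ptprc, Epcam and Krt8 overlap between groups, whereas Pigr over Vil1 (1.37 and 1.43 against 0.637 and 0.630 before division) and Tnfsf13b over Tnfsf13 do not.

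Of the other leukocyte markers, myeloid genes had mostly higher values and T cell genes mostly lower ones. Over all tested genes, 31.9% lay higher and 22.1% lower without overlap. At an unadjusted limma p under 0.05, 10.2% of them were higher and 10.1% lower. Of 9 pan-leukocyte genes, 7 had both Vil-CREPT-KO values above both WT values, 1 both below and 0 were called by limma, while 5 were higher and 1 lower at an unadjusted p under 0.05. Cd52, Arhgdib and Laptm5 had log2 fold changes of 0.40, 0.27 and 0.67 (limma adjusted p = 0.283, 0.582 and 0.160). The gene with both values below was Rac2, named after its values were seen. Its log2 fold change of -1.32 was the largest of this list in absolute size, and its limma adjusted p of 0.0506 lay just outside the call. Of 16 myeloid genes, 14 lay higher without overlap, 8 were higher at an unadjusted p under 0.05, and 0 were called by limma, with a summed FPKM of 588 and 430 against 288 and 357. C1qa, Lyz2 and C1qc had log2 fold changes of 0.83, 0.31 and 0.70 (adjusted p = 0.212, 0.350 and 0.197). Itgax, named after its values were seen, had a log2 fold change of 0.986 (limma adjusted p = 0.0434) and missed the call by the fold threshold. Of the 16, 0 lay lower without overlap. T cell genes had the opposite order, with 0 of 7 tested higher and 5 lower without overlap (22.1% of all tested genes), 3 lower at an unadjusted p under 0.05 (10.1% of all tested genes), 0 called by limma and a summed FPKM of 23.4 and 16.5 against 28.6 and 24.2. Cd3g and Cd8a had log2 fold changes of -0.86 and -0.81 (adjusted p = 0.0776 and 0.127), and Thy1, which stroma and nerve also express, 0.70 (adjusted p = 0.423). Of 10 stromal and muscle genes, 4 lay higher and 1 lower without overlap, 0 were called by limma and 2 were higher and 1 lower at an unadjusted p under 0.05. The median log2 fold change of these 10 was 0.565. The most abundant, the muscle genes Tagln, Acta2 and Des, had log2 fold changes of -0.16, -0.20 and 0.28, each of which changed sign when 1 library was left out. The part of cell content in the values of the members was not tested.

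Among the signals that draw plasma cells to the gut or steer B cells to IgA, a single gene was called. Aldh1a1, which makes retinoic acid, was at 15.6 and 13.1 FPKM in libraries Vil-CREPT-KO 1 and 2 and at 45.4 and 56.95 FPKM in WT 1 and 2, 3.56-fold lower (log2 fold change -1.76, SE 0.181, limma adjusted p = 0.0211). The adjusted p was 0.254 without WT 1, 0.210 without WT 2 and 0.0578 with no filter on low values, which ended the call, as did the replicate block (0.0507). Aldh1a2, which has the same activity, was at 27.9 and 24.6 against 11.1 and 17.9 FPKM (log2 fold change 0.85, adjusted p = 0.159). With it, the other 5 tested genes of the list of 15 lay higher without overlap and were not called, and the median log2 fold change was 0.564. Over all tested genes, 31.9% lay higher and 22.1% lower without overlap. At an unadjusted limma p under 0.05, 10.2% of them were higher and 10.1% lower. Of 14 tested genes of homing and lymphoid chemokines, 0 were called by limma, 2 were higher and 1 lower at an unadjusted p under 0.05, and 7 lay higher and 3 lower without overlap, with a median of 0.253. Ccl28, an epithelial attractant of IgA plasma cells, was at 0.47 and 1.06 FPKM for Vil-CREPT-KO and 1.66 and 1.79 in WT (-0.65, adjusted p = 0.197), and its receptor gene Ccr10 at 1.66 and 1.87 against 1.38 and 1.09. Ccl25, the small intestinal attractant, was at 69.0 and 85.9 against 71.9 and 70.3 FPKM (0.11, adjusted p = 0.742), an overlap whose direction turned to -0.02 under the rescaling. Cxcl13, the B cell follicle chemokine, was at 11.8 and 7.83 against 4.90 and 6.25 FPKM (0.70, adjusted p = 0.197). Ltbr and Ccl21a, of lymphoid tissue organisation, had log2 fold changes of -0.26 and 0.80 (adjusted p = 0.426 and 0.251).

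By mean level over the 4 libraries, per length, the order was Jchain, Pigr, Mzb1, Tnfsf13b, Cd79a, Derl3, Cd79b, Tnfrsf17 and Ms4a1, from 717 FPKM down to 0.065 FPKM. The ranges of Tnfsf13b, Cd79a and Derl3 overlapped over the libraries, at 8.81 to 13.0, 5.71 to 11.3 and 5.84 to 9.05 FPKM, as did those of Cd79b and Tnfrsf17 and, at their ends, those of Jchain and Pigr, 495 against 524 FPKM. Within each of the 4 libraries, however, Jchain was above Pigr and Tnfsf13b above both Cd79a and Derl3, whereas Cd79a and Derl3, and likewise Cd79b and Tnfrsf17, changed places between libraries. The genes with the closest pattern were sought by Euclidean distance over the 4 libraries, after centring log2(FPKM + 1) per gene, among 7579 genes whose mean reached 5 FPKM. For Jchain these were Ccdc88b (distance 0.0417), Lgals3 (0.0669) and Elmo1 (0.0717), for Cd79a they were Trim16 (0.0414), Prag1 (0.0485) and Spsb1 (0.0662), and for Pigr they were Creb3l2 (0.0857), Eif4ebp2 (0.107) and Zzef1 (0.107). Ccdc88b, for example, was at 9.37, 8.18, 5.95 and 4.56 FPKM in libraries Vil-CREPT-KO 1 and 2 and WT 1 and 2. With 4 libraries, such closeness describes the samples only.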

How the data were processed

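RNA of irradiated intestine was sequenced from 4 libraries, grouped and numbered by the sample labels. The authors deposited 1 table of FPKM values; the study's methods name Bowtie2 for mapping clean reads to GRCm38.p6 transcripts and RSEM for the levels, with reads that fit several genes split by estimate. HISAT and mm10 also stand in the submitters' processing notes, and tool versions were not given in the sources used here. A few abundant transcripts in a library lower the FPKM of all others. Depth was estimated. Steps between low FPKM values of short genes put it near 18100000 to 18800000 fragments a library, but only 66.8% to 73.5% of these values lay within 0.15 of whole reads, so whole reads could not be recovered, and counting intervals are left out.

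Of 17505 gene IDs, 17473 were matched to RefSeq symbols (GRCm38.p6) and 32 were not. Values were used as log2(FPKM + 1), a scale that understates the change of low genes. The 11621 genes whose mean reached 1 FPKM were compared between groups, two-sided, with limma 3.58.1 (R 4.3.3; variance trend, 2 residual and 3.08 prior degrees of freedom) and Benjamini-Hochberg adjustment over all of them, and a gene was called where the adjusted p was under 0.05 and the absolute log2 change over 1. The test was run on simulated data with the same spread for every gene. Spread differed between genes in these libraries, so the simulation does not show how often small changes would be called here. A gene with an absolute log2 change of 1 or less could not be called at any adjusted p, which limits what the absence of a call can show. An exact permutation test of 2 against 2 cannot go below p = 0.333. Intervals are limma's at 95%.

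The members and gene lists were chosen with earlier results of these data known. All 9 members are named; of each other list, up to 4 called genes or, where none was called, its 3 most abundant; the BAFF and APRIL ligands and receptors, Il17ra, Ccl28, Ccl25, Cxcl13, Cr2 and Rprd1b; and the 3 genes closest in pattern to Jchain, Cd79a and Pigr. Other genes, the ratios and the motifs were chosen after values were seen. Alternatives were quantile normalization, libraries centred on their medians, pseudocounts of 0.1 or 5, dropping the filter or raising it to 5 FPKM, a fit with no variance trend, a replicate block, and each library left out in turn. The block with crossed numbers and a rescaling of each library without gastric mucous and acinar genes were added after seeing the data. Results of some B cell genes are not reported here.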

Additional observations from a re-analysis of the deposited data

How the results depend on the processing

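Over 14 alternatives, 0 members were called by limma in each, and the log2 fold changes of Jchain (0.47 to 0.81), Mzb1 (0.31 to 0.61), Derl3 (0.30 to 0.51), Cd79a (0.38 to 0.80), Cd79b (0.19 to 0.54), Pigr (0.57 to 0.79) and Tnfsf13b (0.24 to 0.50) stayed above 0; the lowest adjusted p was 0.0663, for Cd79a. The count of 241 genes called over the whole table became 141 at a pseudocount of 5 and, without a filter, 78, and ranged from 4 to 899 with 1 library left out. Listed genes called, 11 at first, numbered 6 with no filter and ranged from 4 to 41 with 1 library left out. Direction turned without Vil-CREPT-KO 1 for Des (-0.12) and Ctrb1 (0.24); without Vil-CREPT-KO 2 for Tnfrsf17 (-0.03), Ccl25 (-0.04), Tagln (0.19) and Acta2 (0.17); without WT 1 for Rab25 (-0.04) and Des (0.00, marginally below 0); without WT 2 for Bcl6 (-0.22), Tagln (0.15) and Acta2 (0.17); and under the rescaling for Ccl25 (-0.02), Ifngr1 (-0.05) and Rab25 (-0.10). The highest left-out values of these genes were 0.32 for Tnfrsf17, 0.27 for Ccl25, 0.11 for Rab25 and 0.67 for Des, and the lowest were -0.51 for Tagln, -0.56 for Acta2 and -9.46 for Ctrb1. The cause was not tested.

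With the replicate number as a block, 122 genes were called over the table and 0 members were called, while 1 member passed an unadjusted p under 0.05, and Aldh1a1 lost its call (adjusted p = 0.0507). Same-numbered libraries did not deviate together (correlation -0.264). This correlation rests on 1 difference within each group, so it does not settle whether the numbers pair the samples. With crossed numbers as the block, 346 genes and 0 members were called. Of the results for 84 named genes, 1119 kept their direction and side of the threshold, 11 moved out of the threshold, 21 moved into it and 14 turned direction. Estimated depth limits Ms4a1, Cr2 and Fcer2a, all near 0.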

Other observations

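Further genes of the IgA setting, named after their values were seen, are given as values. Il22, the interleukin 22 gene of mucosal lymphocytes, was at 1.49 and 0.95 FPKM in libraries Vil-CREPT-KO 1 and 2, listed at 0 in WT 1 and at 0.11 FPKM in WT 2, and was not tested at this level. Tgfb1, the growth factor that directs class switching to IgA, was at 15.1 and 11.97 FPKM for Vil-CREPT-KO and 6.97 and 8.45 FPKM in WT (log2 fold change 0.74, limma adjusted p = 0.126), and its receptor gene Tgfbr2 at 52.9 and 42.1 against 26.9 and 23.7 FPKM (adjusted p = 0.0884). Madcam1, the vascular address of gut-homing lymphocytes, was at 5.58 and 2.49 against 1.09 and 2.42 FPKM, so that the groups lay apart only narrowly.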
